A study of Mus musculus with 20 samples.

Results

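The 10 genes described here encode α- and β-tubulins and were measured in N2A cells, a mouse neuroblastoma line. They are the α-tubulins Tuba1a, Tuba1b, Tuba1c and Tuba4a and the β-tubulins Tubb2a, Tubb2b, Tubb3, Tubb4b, Tubb5 and Tubb6. They were chosen by name from 34083 genes, and every annotated transcript of each gene was summed. RNA was sequenced in 20 libraries, to find out whether femtosecond near-infrared laser scanning of the kind used in stimulated Raman scattering (SRS) microscopy changes gene expression. Batch 1 held 5 groups of 3 libraries and batch 2 held 2 groups. The NC wells of each batch were handled like the others but never exposed. In batch 1, I0-E0, I0-E2 and I0-E4 received the same rounded mean intensity of 48 mW/µm2, with dwell times of 2, 10 and 20 µs per pixel and fluencies of about 10, 48 and 95 J/cm2. I2-E2 received 240 mW/µm2 for 2 µs per pixel and about 48 J/cm2, the fluency of I0-E2. In batch 2, 3 libraries of I3-E3-SRS received 2 lasers through another objective, at about 400 mW/µm2 and 79 J/cm2, beside 2 NC libraries. Whole wells of the line were scanned and lysed 1 h later, and nothing in the labels says whether wells of a group came from separate cultures, so the p-values reflect only how far these wells differed.

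α- and β-tubulin form the heterodimer that polymerizes into microtubules. Isotypes differ little in the folded body of the protein and more in the acidic tail at the carboxyl end, which is rich in glutamate and carries glutamylation, glycylation and, in most α-tubulins, removal and return of a last tyrosine. Tubb3 and Tuba1a are well known from neurons, whereas Tubb5, Tubb4b and Tuba1b are found in most dividing cells. Cells also adjust tubulin mRNA to the amount of free tubulin: TTC5 binds the first residues of nascent tubulin on the ribosome and brings in the CCR4-NOT deadenylase.

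The first 12 coding bases are shown because they encode the stretch that TTC5 reads; the codons after the start codon are in capitals. Sequences were read from GENCODE vM21 on the build GRCm38.

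Tuba1b: atgCGTGAGTGC

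Tuba4a: atgCGCGAGTGC

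Tubb5: atgAGGGAAATC

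Tubb3: atgAGGGAGATC

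Tubb2b: atgCGAGAGATC

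In all 4 α-tubulin genes these codons read arginine, glutamate and cysteine, and in all 6 β-tubulin genes they read arginine, glutamate and isoleucine. The last 60 coding bases before the stop codon encode the acidic tail, where the isotypes differ most, and are shown for Tuba4a and 5 β-tubulins; glutamate codons (GAA or GAG) are in capitals.

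Tuba4a: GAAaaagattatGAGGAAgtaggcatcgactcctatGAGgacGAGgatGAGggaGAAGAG

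Tubb2a: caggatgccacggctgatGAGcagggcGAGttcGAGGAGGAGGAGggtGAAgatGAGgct

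Tubb2b: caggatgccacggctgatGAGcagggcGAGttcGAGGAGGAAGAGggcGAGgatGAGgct

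Tubb3: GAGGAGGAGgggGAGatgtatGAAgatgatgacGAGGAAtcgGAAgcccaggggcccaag

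Tubb5: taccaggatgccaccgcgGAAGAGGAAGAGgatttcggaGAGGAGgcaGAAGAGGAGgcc

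Tubb4b: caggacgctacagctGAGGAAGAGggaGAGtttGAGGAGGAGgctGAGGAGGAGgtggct

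The tails of Tubb2a and Tubb2b differed at 3 of 60 bases, all in glutamate or glycine codons that encode the same residue in both genes. Tuba4a ends in a codon for glutamate, Tubb3 in one for lysine, and Tubb2a, Tubb2b, Tubb4b and Tubb5 in one for alanine. Glutamate took 10 of the last 20 codons in Tubb4b and 8 of 20 in Tubb3.

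Likeness between the isotypes sets how well reads can be assigned to a gene. Over the coding bases, α-tubulin genes were 84.7% to 98.3% identical to each other, and β-tubulin genes 80.4% to 96.5%. Of the words of 31 bases in each gene's transcripts, those found in no other gene made up 96.8% for Tubb3, 96.5% for Tubb5 and 96.8% for Tubb6. They made up 43.6% for Tubb2a, 56.9% for Tubb2b and 47% for Tubb4b, which shares words with the pseudogenes Tubb4b-ps1 and Tubb4b-ps2. For Tuba1a and Tuba1b they made up 21.4% and 21.3%, and within the coding part 2.34% and 2.79%. The levels of Tuba1a, Tuba1b and Tuba1c, and of Tubb2a and Tubb2b, therefore rest on how Salmon divided shared reads, and each is less certain than the levels of Tubb3, Tubb5 and Tubb6. For the pseudogenes of β-tubulins, the highest estimated count in a library was 8.32 for Tubb4b-ps1 and 1.43 for Tubb2a-ps2. Tuba1a shares 53.6% of its words with AC157548.1 and as many with Gm17383, which took up to 46.3 reads in a library. Tuba1b shares 61.1% with AC157548.1 and 52.1% with Gm3226. The deposited values held no transcript matched to AC157548.1 or Gm3226, so no reads were assigned under these names. The percentages above still count their words as shared.

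**Figure D1:**
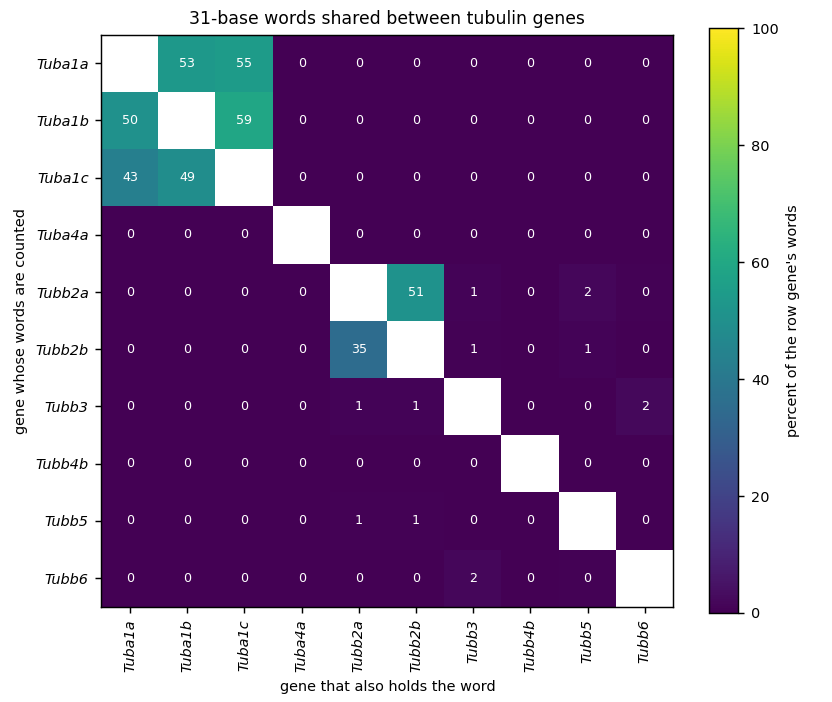
Percent of the 31-base words of the gene in each row that also occur in the gene of each column, over all annotated transcripts. Tuba1a, Tuba1b and Tuba1c form one block of shared words and Tubb2a and Tubb2b another, whereas Tubb3, Tubb5 and Tubb6 share at most 2.3% of their words with any other gene of the 10.

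Tuba1a (chr15:98949837-98953703), Tuba1b (chr15:98931425-98934565) and Tuba1c (chr15:99029891-99038110) lie near each other on chromosome 15, and Tubb2a (chr13:34074274-34078007) and Tubb2b (chr13:34126748-34130466) on chromosome 13. Tubb3 lies at chr8:123411424-123422015, Tubb4b at chr2:25222160-25224702, Tubb5 at chr17:35833921-35838306 and Tuba4a at chr1:75214228-75219865, all on GRCm38. Tuba4a shares 35.6% of its words with Stk16, which overlaps it. Since strand-specific counting is not stated, it is not known whether reads of Tuba4a and Stk16 were told apart where they overlap.

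Total estimated counts ran from 5623685 to 8636798 in batch 1 and from 5473588 to 12698770 in batch 2. One library, NC replicate 1 of batch 2, stood apart. Transcripts shorter than 300 bases held 33% of its TPM (a level per transcript length, scaled to a fixed sum per library) against 1.62% to 2.3% in the other 19 libraries, and transcripts annotated as retained introns held 4.61% of its counts against 2.21% to 2.96%. Its TPM values are therefore low for long transcripts, so batch 2 is given mainly in CPM (counts relative to library size, scaled by TMM between the libraries of a batch), with and without this library. The line showed its own markers: 11 of 12 sympathoadrenal markers reached a median of 1 CPM and summed to 1780 to 1960 CPM, whereas the summed level was at most 6.81 CPM for 5 macrophage markers, 1.46 CPM for 4 epithelial, 7.24 CPM for 5 fibroblast, 14.1 CPM for 6 glial, 18.2 CPM for 4 endothelial and 1.54 CPM for 4 erythroid markers.

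The tubulin mRNA of unexposed N2A cells was led by Tuba1b, the general α-tubulin of dividing cells. In NC of batch 1, its TPM was 2054 ± 98.2 (SD, n = 3). Tuba1a, the α-tubulin of developing neurons, followed at 1351 ± 80.1 TPM, and Tubb5, the leading β-tubulin, at 1191 ± 71.4 TPM. Next came the neuronal Tubb3 at 653 ± 24.8 TPM and the widely expressed Tubb4b at 514 ± 18.8 TPM. Tuba1c at 184 ± 17.5 TPM and Tubb6 at 158 ± 6.73 TPM overlapped in range, and these were the only neighbours in the order that did. Tubb2b stood at 107 ± 0.699 TPM and Tubb2a at 97.3 ± 1.40 TPM. Tuba4a was the lowest, at 6.37 ± 1.74 TPM. The 10 genes together held 0.636% ± 0.0309 of the TPM of a library.

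As a composition, Tuba1b made up 57.1% ± 0.683 of the α-tubulin TPM in NC of batch 1, Tuba1a 37.6% ± 0.840, Tuba1c 5.12% ± 0.283 and Tuba4a 0.176% ± 0.0401 (SD, n = 3). Of the β-tubulin TPM, Tubb5 made up 43.8% ± 0.739, Tubb3 24.0% ± 0.381, Tubb4b 18.9% ± 0.156, Tubb6 5.81% ± 0.0159, Tubb2b 3.94% ± 0.187 and Tubb2a 3.58% ± 0.118. The shares are among these 10 genes, so the α-tubulin Tuba8 is not counted in them. The 4 α-tubulins summed to 1.32 ± 0.0124 times the 6 β-tubulins. Counted per read and not per length, Tubb5 took 54.5% of the β-tubulin reads, since its transcript is the longest of the β-tubulins.

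**Figure D2:**
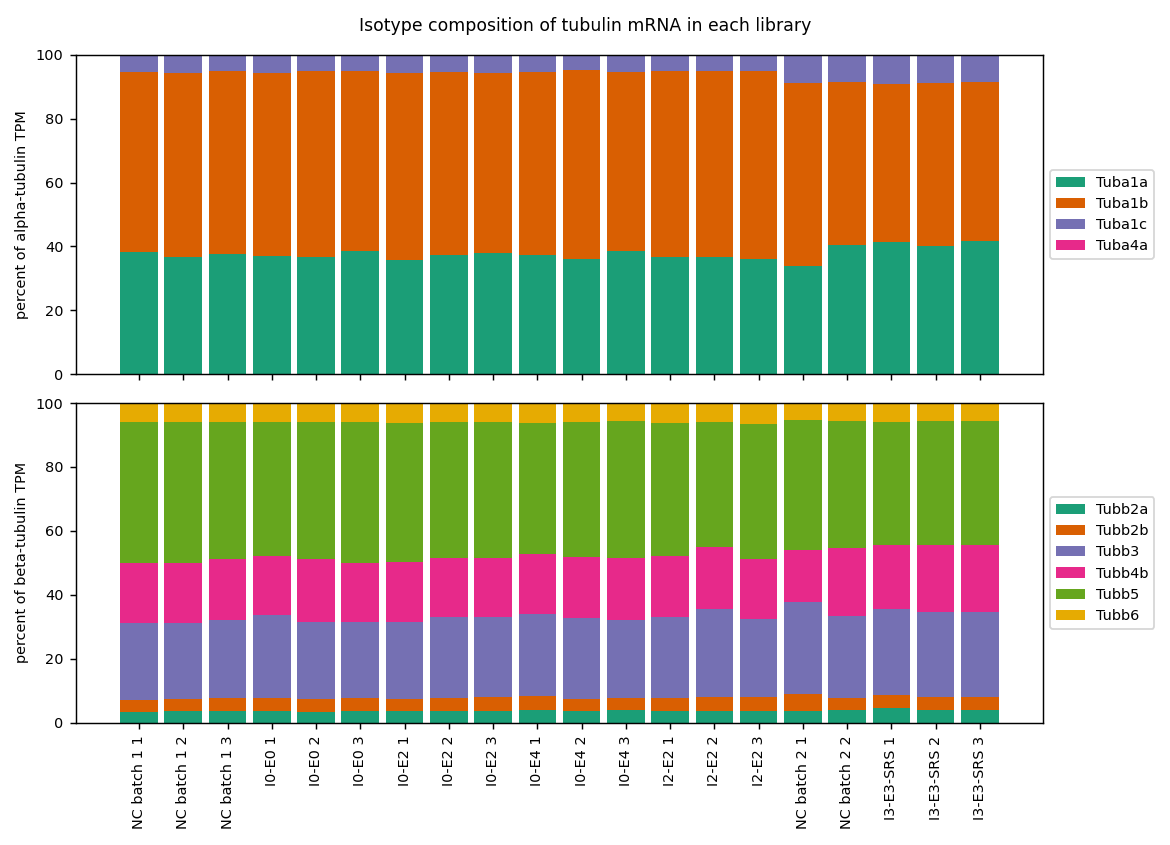
Share of each gene in the α-tubulin TPM (top) and the β-tubulin TPM (bottom), in percent, for each of the 20 libraries. Tuba1b and Tubb5 held the largest share of their class in every library, and Tuba1c held 8.27% to 9.07% of the α-tubulin TPM in the batch 2 libraries against 5.12% in NC of batch 1.

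Of the other tubulin genes, the α-tubulin Tuba8 had a median of 34.4 TPM over the 20 libraries, above the level of Tuba4a, and Tubg1, the γ-tubulin of microtubule nucleation, 163 TPM. Tubd1 and Tube1, the δ- and ε-tubulins of centrioles, had medians of 5.46 and 12.5 TPM. Tuba3a, Tuba3b, Tubal3, Tubb1 (the platelet β-tubulin) and Tubb4a had at most 2.1 estimated reads in any library.

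Exposure was compared with NC within each batch, with edgeR's quasi-likelihood test and Benjamini-Hochberg adjustment over all genes tested. None of the 10 genes passed an adjusted p of 0.05 in any of the 8 comparisons, and 0% of all genes did. The count of zero was the same for the 10 genes with DESeq2, limma-voom and limma-trend. All 10 were tested, among 12296 genes in batch 1 and 12031 in batch 2. For the 9 genes other than Tuba4a, the 95% intervals of all batch 1 log2 fold changes lay between -0.28 and 0.28, so that a fall by more than 17.4% or a rise by more than 21.6% lay outside them. In batch 2, with 2 NC libraries, the intervals of the 9 genes were wider, between -0.30 and 0.32, or -18.6% and 24.4%. The interval of Tuba4a was wider, from -0.10 to 0.81 in I0-E0, at about 5 CPM.

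**Figure D3:**
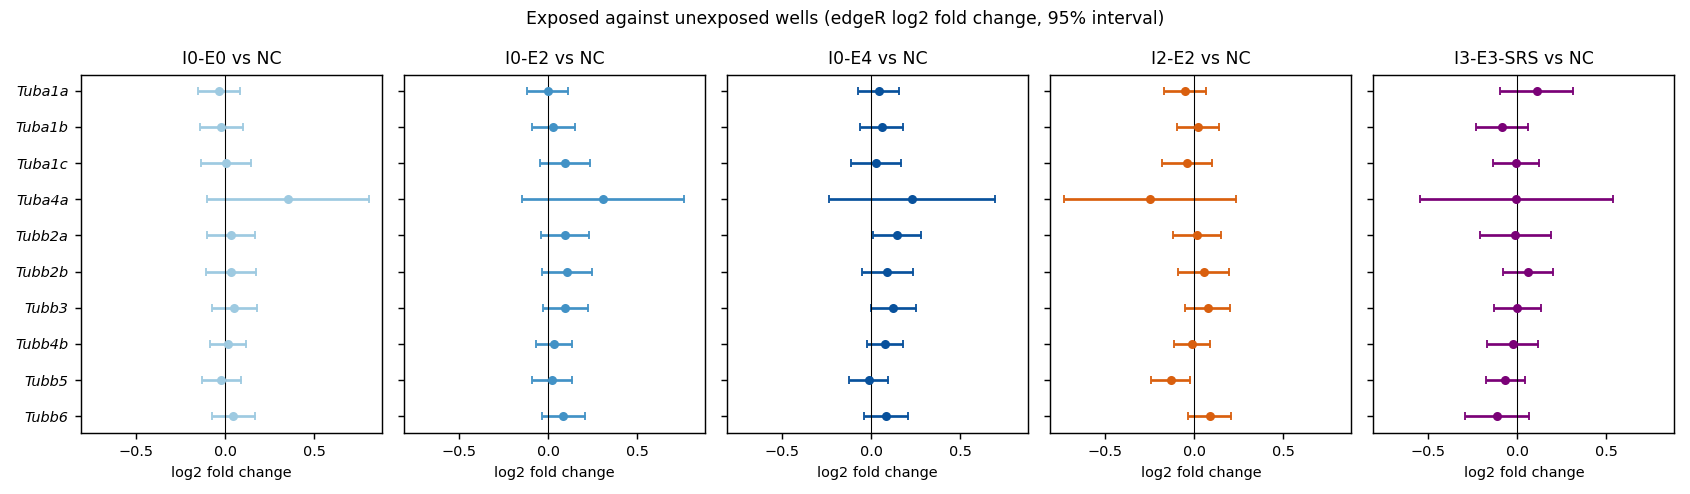
Log2 fold change (exposed minus NC) of each gene with its 95% interval from edgeR's quasi-likelihood fit, for the 5 exposed groups. Points of the 9 genes other than Tuba4a lie between -0.13 and 0.15, and the intervals of Tuba4a are the widest.

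In I0-E0, the lowest fluency, no tubulin gene had groups that did not overlap, where 9.04% of all genes did, and none had an unadjusted p under 0.05, where 3.36% did. The median log2 fold change of the 10 genes was 0.02 against 0.0035 over all genes. Tuba1b was measured at 2008, 2093 and 1991 CPM in I0-E0 and at 2088, 2121 and 1977 CPM in NC, and the groups overlapped.

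In I0-E2, 9 of 10 genes lay above 0, with a median log2 fold change of 0.09 against 0.00067 over all genes. Without NC replicate 3, 7 of 10 lay above 0, with a median of 0.05, and without I0-E2 replicate 3 the median was 0.06. Only Tubb6, a broadly expressed β-tubulin, had groups apart, where 11.2% of all genes did. Tubb6 was measured at 168, 173 and 172 CPM in I0-E2 and at 166, 162 and 156 CPM in NC. In CPM, all 3 exposed libraries were above all 3 NC libraries, by a log2 fold change of 0.09 (SE 0.058, edgeR adjusted p = 0.993). In TPM, Tubb6 stood at 164 ± 3 in I0-E2 and 158 ± 6.73 in NC (SD, n = 3), and the groups overlapped. No gene of the 10 had an unadjusted p under 0.05, where 3.36% of all genes did.

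In I0-E4, the highest fluency, 9 of 10 genes lay above 0, with a median of 0.08 against 0.0029 over all genes. This comparison uses the same NC libraries as that of I0-E2, so the counts of genes above 0 are not separate observations. In CPM, Tubb2a, Tubb3 and Tubb4b had groups apart, all with the exposed libraries higher, where 12.7% of all genes had groups apart. In TPM, the groups of each of these genes overlapped. Tubb2a stood at 103 ± 7.35 against 97.3 ± 1.4 TPM in NC, and Tubb3 at 677 ± 12.7 against 653 ± 24.8 TPM (SD, n = 3). Tubb4b stood at 517 ± 27.9 against 514 ± 18.8 TPM. Together, the 10 genes held 0.629% of the TPM against 0.636% in NC, and 0.718% of the counts against 0.707%. Tubb2a, a neuronal β-tubulin, was measured at 102, 95.9 and 100.1 CPM in I0-E4 and at 89.3, 91.1 and 89.5 CPM in NC. Its log2 fold change was 0.15 (SE 0.064), with an unadjusted p of 0.0364 and an edgeR adjusted p of 0.620; 7.91% of all genes had an unadjusted p under 0.05. Tubb3 was measured at 783, 801 and 749 CPM against 733, 710 and 699 CPM, a log2 fold change of 0.12 (SE 0.060, edgeR adjusted p = 0.622). Tubb4b was measured at 481, 508 and 492 CPM against 477, 472 and 455 CPM, a log2 fold change of 0.08 (SE 0.048, edgeR adjusted p = 0.671). Tuba1b had 1 high library, at 2394 CPM beside 2049 and 2005 CPM, and without it the log2 fold change went from 0.06 to -0.02.

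Over the unexposed and the 3 low-intensity groups of batch 1, a linear trend on fluency gave 9 of 10 genes above 0 over the whole span of 95 J/cm2. Of all genes, 49.8% lay above 0, and the median trend was 0.07 for the 10 genes against -0.00066 over all genes. Tubb2a had the largest of the β-tubulin trends, 0.14 (SE 0.058), with an unadjusted p of 0.0244 and an edgeR adjusted p of 0.663, where 7.26% of all genes had an unadjusted p under 0.05. Tubb3 followed at 0.11 (SE 0.054, edgeR adjusted p = 0.669), and Tubb5 stood at -0.0002 (SE 0.047). This trend and the I0-E4 comparison share libraries.

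In I2-E2, the higher intensity, 5 of 10 genes lay above 0 and 5 below. Tubb5 was measured at 1763, 1606 and 1791 CPM in I2-E2 and at 1968, 1924 and 1767 CPM in NC, so the groups overlapped between 1 exposed and 1 NC library. Its log2 fold change was -0.13 (SE 0.053), with an unadjusted p of 0.0216 and an edgeR adjusted p of 0.644, where 7.19% of all genes had an unadjusted p under 0.05. Over the alternatives, which include leaving out each library, the log2 fold change of Tubb5 ran from -0.18 to -0.09. No gene of the 10 had groups apart, where 12.1% of all genes did. As a share of β-tubulin TPM, Tubb5 was 40.8% ± 1.66 in I2-E2 and 43.8% ± 0.739 in NC, with no overlap between the libraries, while Tubb3 was 25.8% ± 1.51 against 24.0% ± 0.381, and Tubb6 6.29% ± 0.322 against 5.81% ± 0.0159 (SD, n = 3). In I0-E4 as well, the Tubb5 share lay below NC in every library, at 41.9% ± 0.837, and the Tubb3 share above it, at 25.1% ± 0.572 (SD, n = 3). In CPM, the log2 fold change of Tubb5 in I0-E4 was -0.01 (SE 0.053). Shares of one class sum to a fixed total, so these are not separate observations; no test was made on them. Over the 4 exposed groups of batch 1, 7 of 40 shares had libraries apart from NC, and the mean share moved by at most 2.94 percentage points. In CPM, 9.04% to 12.7% of all genes had groups apart in these 4 comparisons, all made with the same NC libraries.

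I2-E2 and I0-E2 received about the same fluency at different intensity and dwell time. Against I0-E2, 9 of 10 genes lay below 0 in I2-E2, with a median of -0.05 against 0.0065 over all genes. Tubb5 was measured at 1836, 1933 and 1971 CPM in I0-E2, above all 3 libraries of I2-E2, with a log2 fold change of -0.15 (SE 0.053), an unadjusted p of 0.00954 and an edgeR adjusted p of 0.945. Tuba4a was measured at 4.31, 4.44 and 3.55 CPM in I2-E2 and at 5.97, 6.89 and 5.17 CPM in I0-E2, a log2 fold change of -0.56 (SE 0.22, unadjusted p 0.0224, edgeR adjusted p = 0.945). Tuba1c was measured at 210, 208 and 209 CPM against 225, 226 and 238 CPM, a log2 fold change of -0.14 (SE 0.067, edgeR adjusted p = 0.949). These 3 of 10 genes had groups apart, where 10.4% of all genes did, and 5.25% of all genes had an unadjusted p under 0.05. Taking all 12 exposed libraries of batch 1 against NC, no tubulin gene had groups apart (0.577% of all genes did) or an unadjusted p under 0.05 (5.89% did), and Tubb3 had the lowest p of the 10, 0.0865 before and 0.808 after adjustment by edgeR, at a log2 fold change of 0.09 (SE 0.048) and above the NC mean in 10 of 12 libraries.

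**Figure D4:**
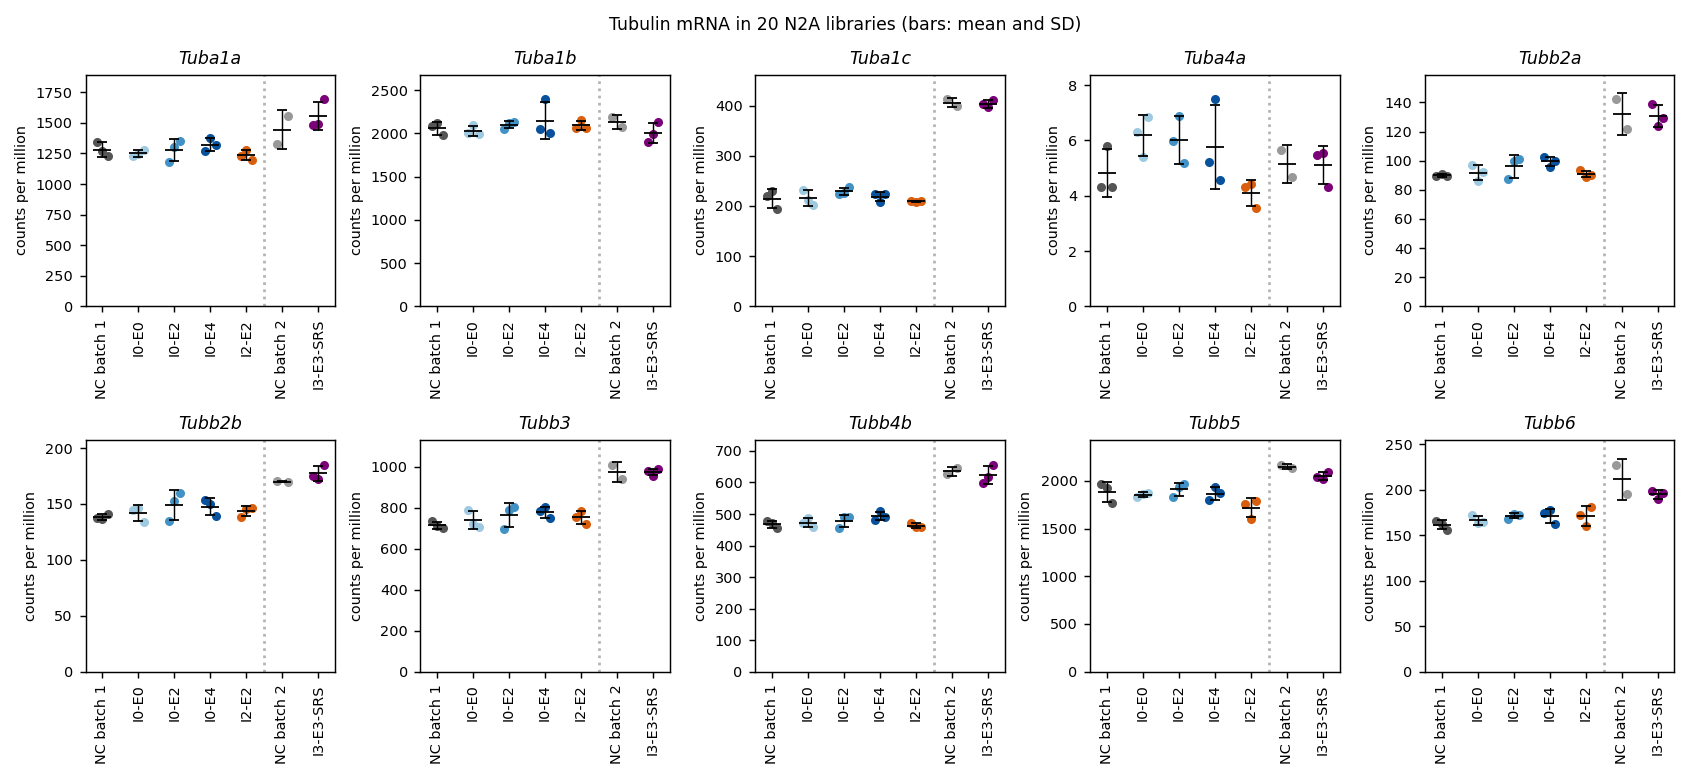
CPM of each gene in every library (points), with the mean and SD of each group (black bars); the dotted line separates batch 1 from batch 2, and each axis starts at 0. Tuba4a varies most between the groups of batch 1, with means from 4.10 to 6.18 CPM. All libraries of batch 2 lie above all of batch 1 for 7 of the 10 genes, with the largest step in Tuba1c, from at most 238 CPM to at least 397 CPM. The batches were scaled separately, and the share of all genes without overlap was not computed.

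In batch 2, none of the 10 genes had an unadjusted p under 0.05 for I3-E3-SRS against NC, where 4.02% of all genes did, and 18.6% of all genes had groups apart in this design of 3 against 2. Tubb2b was measured at 175, 172 and 185 CPM against 170.2 and 169.8 CPM, with a log2 fold change of 0.06 (SE 0.060), and Tubb5 at 2039, 2019 and 2099 CPM against 2171 and 2131 CPM, with a log2 fold change of -0.07 (SE 0.047); these 2 genes had groups apart. The retained intron Tubb5-204 took 11.8% of the Tubb5 reads in NC replicate 1, and with protein-coding transcripts only, the log2 fold change of Tubb5 was -0.011. Without NC replicate 1, over all transcripts, it was -0.055 for Tubb5 and 0.064 for Tubb2b, near the values with both NC libraries. Of the β-tubulin TPM, Tubb5 made up 38.7% ± 0.115 in I3-E3-SRS (SD, n = 3) against 40.6% in NC replicate 1 and 39.6% in NC replicate 2. Tuba1a was measured at 1486, 1494 and 1692 CPM against 1330 CPM in NC replicate 1 and 1556 CPM in NC replicate 2. Its log2 fold change was 0.11 (SE 0.088) with both NC libraries and 0.0015 (SE 0.094) without NC replicate 1. Tubb6 stood at -0.12 (SE 0.077) with both and at -0.0052 (SE 0.081) without it, and Tubb2a went from -0.01 to 0.10. With NC replicate 1 as the only control, 671 of 12737 genes passed an adjusted p of 0.05 in edgeR, none of them among the 10, and with NC replicate 2 as the only control 0 genes passed.

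The library that stood apart also carried short alternative transcripts of the tubulin genes. Tubb3-202, a short protein-coding transcript, took 15.5% of the Tubb3 reads there and at most 0.197% in each of the other 19 libraries. Tubb5-204, a retained intron, took 11.8% of the Tubb5 reads against 0.260% to 0.982% elsewhere. Tubb2b-202 took 7.36% against at most 0.457%, and Tuba1b-202 took 2.04% against at most 0.350%. In the other 19 libraries the main transcript held at least 98.9% of the reads of Tubb5 and at least 99.8% of those of Tubb3. Tuba4a was the exception, with its reads spread over 8 transcripts and Tuba4a-201, the highest, between 16.5% and 93.8% in those 19 libraries.

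**Figure D5:**
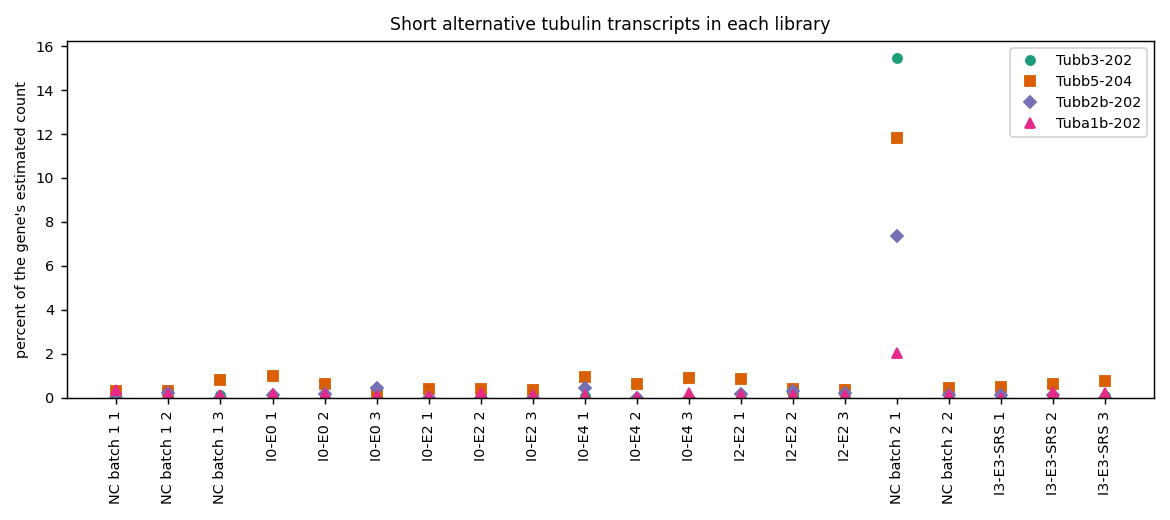
Percent of the estimated count of its gene that each of 4 short alternative transcripts took, in each of the 20 libraries. NC replicate 1 of batch 2 stands above the rest for all 4 transcripts, with 15.5% for Tubb3-202 and 11.8% for Tubb5-204.

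Between the batches, 7 of the 10 genes did not overlap in CPM, all higher in batch 2: Tuba1c, Tubb2a, Tubb2b, Tubb3, Tubb4b, Tubb5 and Tubb6. The share of all genes that did not overlap between the batches was not computed. In TPM, without NC replicate 1 of batch 2, Tubb5 and Tubb6 overlapped and the other genes named did not. Tubb5 reached 1252 TPM in batch 1 against 1210 to 1220 TPM in I3-E3-SRS, and Tubb6 180 TPM against 175 to 185 TPM. Tuba1c was the gene of the 10 with the largest ratio of median CPM, at 397 to 413 CPM in batch 2 against 194 to 238 CPM in batch 1, exposed and NC libraries alike. Batch, culture and time of preparation cannot be told apart here, and the CPM of the batches were scaled separately.

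The machinery around tubulin was read from 7 lists with 78 genes in all, of which 69 were tested in batch 1 and 68 in batch 2. No gene of any list passed an adjusted p of 0.05 in edgeR in any comparison. Against NC, an unadjusted p under 0.05 was given to 1 of 69 list genes in I0-E0 (3.36% of all genes), 2 of 69 in I0-E2 (3.36%), 3 of 69 in I0-E4 (7.91%), 3 of 69 in I2-E2 (7.19%) and 1 of 68 in I3-E3-SRS (4.02%). Groups were apart for 6 list genes in I0-E0 (9.04% of all genes), 5 in I0-E2 (11.2%), 7 in I0-E4 (12.7%), 5 in I2-E2 (12.1%) and 12 in I3-E3-SRS (18.6%), and the genes named have the smallest p among these. The chaperonin CCT and prefoldin, which fold new tubulin, had 13 of 14 tested genes above 0 in I0-E4 with a median log2 fold change of 0.09, where 50.7% of all genes lay above 0. Cct7, a CCT subunit, was measured at 1089 ± 54.8 CPM against 986 ± 13.8 CPM in NC (SD, n = 3), which made the log2 fold change 0.14 (SE 0.058, edgeR adjusted p = 0.612). Of the 14 chaperonin and prefoldin genes, 11 lay above 0 in I0-E0, 11 in I0-E2, 9 in I2-E2 and 12 in I3-E3-SRS. In I2-E2 against I0-E2, 6 of 14 did. Of all genes, 48.6% to 52.4% lay above 0 in these comparisons. The 4 stathmins, which bind free tubulin dimers, all lay above 0 in I0-E4 with a median of 0.18, and in I2-E2 with a median of 0.14. In I0-E0 and in I0-E2, 3 of 4 lay above 0, and in I3-E3-SRS all 4. The genes of tubulin mRNA decay had 2 of 10 above 0 in I0-E4 (50.7% of all genes) and 1 of 10 in I2-E2 (51.2%). Their medians were -0.02 and -0.03. They had 4 of 10 above 0 in I0-E0, 3 in I0-E2, 2 in I3-E3-SRS, and 6 in I2-E2 against I0-E2. The gene above 0 in I2-E2 against NC was Cnot11, a subunit of CCR4-NOT, at 115 ± 8.72 CPM against 101 ± 2.22 CPM, a log2 fold change of 0.19 (SE 0.061, edgeR adjusted p = 0.607). Tubulin modifying enzymes had 8 of 17 above 0 in I0-E4 and 7 of 17 in I2-E2, the folding cofactors 5 of 8 and 6 of 8, and the other tubulins 3 of 5 in each. Cct7 was also the list gene named for I0-E2, at a log2 fold change of 0.10 (SE 0.058, edgeR adjusted p = 0.993), and Ttll12 the one for I2-E2 against I0-E2, at -0.09 (SE 0.059, edgeR adjusted p = 0.952). Nucleation genes had 2 of 11 above 0 in I0-E0 (51.4% of all genes), where Tubgcp3 of the γ-tubulin complex had a log2 fold change of -0.14 (SE 0.059, edgeR adjusted p = 0.9995). They had 1 of 11 above 0 in I0-E2, 3 in I0-E4, 5 in I2-E2 and 6 in I3-E3-SRS. In I3-E3-SRS, Pfdn6, a prefoldin subunit, was measured at 57.5 ± 4.80 CPM (n = 3) against 49.7 ± 0.0439 CPM (n = 2), a log2 fold change of 0.21 (SE 0.089, edgeR adjusted p = 1).

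Over the 15 libraries of batch 1, correlations between tubulin genes varied widely. They are given as a description, since the values share library, scaling and, for close paralogs, reads. Pearson's r of log2(CPM + 1) ran from 0.03 to 0.76 over all pairs, with a median of 0.40. The highest values were for Tubb2b with Tubb3 (0.76), Tuba1a with Tubb4b (0.75) and Tubb2a with Tubb3 (0.72), and Tuba1b with Tuba1c had 0.06. Among 9059 other genes at a mean of 10 CPM or more, those most like Tuba1b were Mrps36 (0.89), Tmbim4 (0.88) and Eif3d (0.86), and those most like Tubb5 were Iars2 (0.90), Twsg1 (0.90) and Fam107b (0.85). These values are the highest of 9059 at n = 15. In batch 1, Tuba1b was highest in I0-E4 replicate 2 (2394 CPM) and Tubb5 lowest in I2-E2 replicate 2 (1606 CPM). The r without these libraries was not computed. A higher r than that of the best of the other tubulin genes was found for 244 genes with Tuba1b and for 490 with Tubb5, while the median r over all genes was 0.0051 for Tuba1b and 0.012 for Tubb5.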

How the data were processed

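The 20 RNA-seq libraries of N2A cells were placed in 7 groups and 2 batches by the submitters' labels. Salmon is the quantifier that the submitters' processing notes name. Its version and options, and the transcript release, are not given in those notes or the paper. The authors deposited an estimated count and a TPM value for each of 107368 transcripts. The deposited TPM values are the authors' own, per transcript length. Of the identifiers, 98.6% matched GENCODE vM21 (GRCm38); the rest held 0.664% to 0.748% of the counts and were left out. Lengths of some tubulin transcripts differ from vM21.

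Estimated counts were summed per gene and rounded. Each batch was fitted apart with edgeR 4.0.16 (R 4.3.3; filterByExpr at a minimum count of 10, TMM, quasi-likelihood test), with Benjamini-Hochberg adjustment over all genes. The study used limma, which was run as an alternative (limma 3.58.1, voom and trend), as was DESeq2 1.42.0. The fit was tested on simulated counts. Biological variation estimated by edgeR came to 8.26% (batch 1) and 11.5% (batch 2) as a coefficient of variation. Shares were computed from summed TPM, without a test. Words of 31 bases were counted over vM21 transcripts. The tail sequences of some α-tubulin genes are not reported here. Groups apart means that, in CPM, no library of one group lay within the range of the other.

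All 10 genes are described in each comparison, and list genes were named where they had the smallest p among those with groups apart. The genes and lists were chosen with earlier results of these data known. Alternatives were other scaling, filters and tests, a replicate block, other transcript sets, both batches in one fit, and leaving out each library.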

Additional observations from a re-analysis of the deposited data

How the results depend on the processing

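No tubulin gene passed an adjusted p of 0.05 in any comparison under any alternative run. Of 1472 values of the 10 genes under alternatives, 1401 kept their direction and 71 changed it, none of which passed the test; the cause was not tested. Genes passing over the whole table numbered 0 in the reported fits, but without a filter on low counts 46 (I0-E2) to 194 (I3-E3-SRS); DESeq2 passed 15 in I3-E3-SRS, and both batches in one fit 19. Tuba4a had 25 to 59 reads in a library, against 110 to 321 for the overlapping Stk16.

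The median log2 fold change of the 10 genes for I2-E2 against NC was 0.00088 and became -0.018 with library totals, -0.016 without a filter and 0.016 at a mean of at least 10 CPM. For I3-E3-SRS it went from -0.0093 to -0.039 with protein-coding transcripts only, where Tubb5 went from -0.068 to -0.011. Leaving out 1 library each gave medians of -0.0058 to 0.038 for I0-E0, 0.045 to 0.11 for I0-E2, 0.057 to 0.11 for I0-E4, 0.028 to 0.063 for all exposed libraries of batch 1, 0.051 to 0.11 for the fluency trend, -0.028 to 0.012 for I2-E2, -0.064 to 0.0088 for I3-E3-SRS and -0.12 to -0.025 for I2-E2 against I0-E2. With estimated counts in place of TPM, the shares in NC of batch 1 were 57.9% for Tuba1b and 54.5% for Tubb5, since counts grow with length.

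Deviations of same-numbered libraries from their group means correlated at -0.262 to 0.259 in batch 1, with 3 of 30 pairs over 0.1. For differently numbered libraries the range was -0.204 to 0.263, with 8 of 60 pairs over 0.1. Deviations from the mean of few libraries depend on each other, so these values cannot show whether replicate numbers paired the samples. The replicate block passed 0 of the 10 genes in every comparison, and 6 genes in all for I3-E3-SRS.

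Directions that changed were as follows, as log2 fold changes. With scaling by library totals, Tuba1c was -0.00202 for I0-E0 vs NC, Tubb2a was -0.00248 for I2-E2 vs NC, Tuba1c was 0.00646 for I3-E3-SRS vs NC, Tuba4a was 0.00773 for I3-E3-SRS vs NC, Tubb2a was 0.00199 for I3-E3-SRS vs NC, Tubb6 was -0.00716 for I2-E2 vs I0-E2. With no filter on low counts, Tuba1c was -0.00507 for I0-E0 vs NC, Tuba1a was 0.00113 for I0-E2 vs NC, Tubb2a was -0.000236 for I2-E2 vs NC, Tuba1c was 0.00483 for I3-E3-SRS vs NC, Tuba4a was 0.00255 for I3-E3-SRS vs NC, Tubb6 was -0.0191 for I2-E2 vs I0-E2. With protein-coding transcripts only, Tuba1c was -0.000599 for I0-E0 vs NC, Tubb3 was -0.0292 for I3-E3-SRS vs NC. With a replicate block, Tuba4a was 0.106 for I3-E3-SRS vs NC, Tubb3 was -0.00795 for I3-E3-SRS vs NC. With DESeq2 size factors, Tubb6 was -0.00411 for I2-E2 vs I0-E2. With DESeq2, Tubb6 was -0.00248 for I2-E2 vs I0-E2. With limma-trend, Tubb6 was -0.00231 for I2-E2 vs I0-E2, Tubb5 was 0.000214 for fluency trend. With only the groups compared, Tubb6 was -0.00327 for I2-E2 vs I0-E2. With both batches in one fit, Tubb6 was -0.00328 for I2-E2 vs I0-E2, Tubb5 was 0.000666 for fluency trend. Leaving out 1 library each gave these ranges; where NC of batch 2 was left with 1 library, that library is assumed to vary like the SRS group. For I0-E0 vs NC, Tuba1a ran from -0.0674 to 0.000461, Tuba1c ran from -0.0662 to 0.0538, Tubb2a ran from -0.0119 to 0.0703, Tubb4b ran from -0.00947 to 0.0305, Tubb5 ran from -0.0699 to 0.00844. For I0-E2 vs NC, Tuba1a ran from -0.0453 to 0.0520, Tuba1b ran from -0.000297 to 0.0491, Tubb5 ran from -0.0238 to 0.0546. For I0-E4 vs NC, Tuba1b ran from -0.0241 to 0.104, Tuba1c ran from -0.0449 to 0.0753, Tubb5 ran from -0.0623 to 0.0162. For I2-E2 vs NC, Tuba1b ran from -0.0146 to 0.0347, Tuba1c ran from -0.115 to 0.00542, Tubb2a ran from -0.0113 to 0.0299. For I3-E3-SRS vs NC, Tuba1c ran from -0.0280 to 0.0161, Tuba4a ran from -0.149 to 0.119, Tubb2a ran from -0.121 to 0.0993, Tubb3 ran from -0.0485 to 0.0537, Tubb4b ran from -0.0630 to 0.00911. For all exposed batch 1 vs NC, Tuba1a ran from -0.0443 to 0.0236, Tuba1b ran from -0.0104 to 0.0390, Tuba1c ran from -0.0495 to 0.0706. For I2-E2 vs I0-E2, Tubb3 ran from -0.0887 to 0.0113, Tubb6 ran from -0.0514 to 0.0462. For fluency trend, Tuba1b ran from -0.00792 to 0.117, Tuba1c ran from -0.00688 to 0.0714, Tuba4a ran from -0.107 to 0.248, Tubb5 ran from -0.0306 to 0.0262.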
